A study of Homo sapiens with 16 samples.

Results

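Interferon-induced genes are the antiviral, antigen-processing and regulatory genes that cells switch on after type I, II or III interferon. The set described here has 44 listed genes, named from general knowledge of the interferon response and not from a contrast of these arrays. Of them, 43 were measured, out of 19775 genes on the array that could be named, and STAT2 was not analysed here. Each gene is represented by 1 probe set, the one with the highest mean over the 16 arrays; 19 of the 43 genes have more than 1.

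The arrays came from MIA PaCa-2, an established human pancreatic carcinoma line and therefore a single genetic background. Cells were exposed for 12 hours to PP242 at 2.5 µM, a compound that blocks the catalytic site of mTOR in both of its complexes, or to the DMSO vehicle. RNA was taken from pooled sucrose-gradient fractions that hold mRNAs with more than 3 ribosomes (polysome RNA) and from the whole cytosol (cytosolic RNA). This gave 4 groups of 4 arrays, polysome PP242, polysome vehicle, cytosolic PP242 and cytosolic vehicle, with replicate numbers 1 to 4 in each. The labels name no interferon, virus or nucleic acid given to any group. They do not say what the replicate numbers stand for; whether each number is a culture of its own is not stated, and the p-values may reflect technical spread alone. All values are log2 signals as deposited, on which 1 unit is a doubling. The number of arrays limits the precision.

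Type I interferons bind the IFNAR1 and IFNAR2 receptor and activate the kinases JAK1 and TYK2, whose signal leads to an IRF9-containing complex that binds the interferon-stimulated response element in promoters. Type II interferon has its own receptor and acts at the gamma activated site. Carcinoma lines can carry a low standing expression of these genes without added interferon. In mouse cells the translational repressors that mTOR inactivates also restrain translation of the mRNA of Irf7, the factor that drives interferon production.

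In these cells the median gene had a mean signal of 5.91 over the 16 arrays, and 23 of the 43 interferon-induced genes lay above it. IFITM2 was the brightest at 11.3 and TRIM22 the dimmest at 2.45, with 6 genes above the upper quartile of all genes (7.90) and 9 below the lower quartile (4.07). Levels of different probe sets do not rank transcripts, so they serve here only to mark which genes were near the dim end of the array. Keratins KRT8, KRT18 and KRT19 and vimentin (VIM), which mark this carcinoma line, read 9.18 to 14.4. The 4 measured of 6 leukocyte markers read 2.66 to 6.15, the 4 endothelial markers 2.17 to 6.02 and the 2 measured of 4 normal pancreas markers 2.72 to 5.42. Of the 5 fibroblast markers, 4 read below the carcinoma markers and COL1A2 reached 12.6.

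Most of the set split by replicate number, in every group. In 24 of the 43 genes, both arrays of numbers 1 and 2 lay above both arrays of numbers 3 and 4 in all 4 groups, whereas 0 genes of the set lay below in all 4. Over all 19775 genes, 4.55% were higher and 2.21% lower in this sense. The members differed by a median of 0.74 between the number pairs (all genes, 0.03). The list was compared on this split because it was already known, and with 2 numbers against 2 an exact two-sided test cannot give less than 0.333, so the values below are a description with no test. In bulk RNA, fewer cells expressing a gene and less RNA per cell cannot be told apart.

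**Figure D1:**
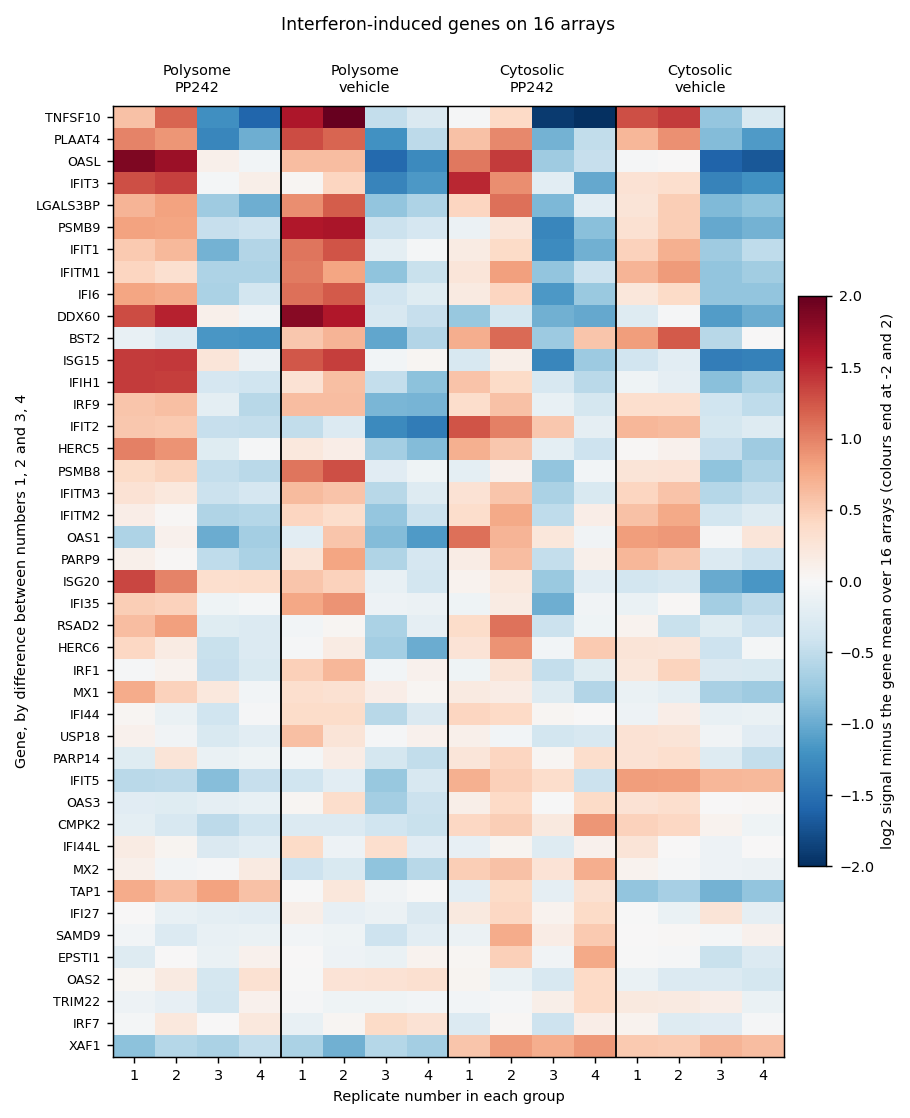
Each row is 1 of the 43 interferon-induced genes and each column 1 array (replicate numbers 1 to 4 in polysome PP242, polysome vehicle, cytosolic PP242 and cytosolic vehicle); colour is the log2 signal minus the gene's mean over the 16 arrays. The upper rows are red in numbers 1 and 2 and blue in numbers 3 and 4 within each group, from TNFSF10 with a mean difference of 2.15, while rows such as TAP1 (0.07) show no such split.

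Promoter sequence is given for 6 of the genes that carry the split and for 2 that did not, since the response element is where the IRF9-containing complex binds. RefSeq promoter windows (GRCh38.p14, from 250 bases before to 50 after a start of the gene) were found for 34 of the 43 genes, and some genes had several. The core of the interferon-stimulated response element, searched as GAAA followed after any 2 bases by a second GAAA, occurred on either strand in 26 of the 34 (76.5%), against 1195 of 27305 genes with a window (4.38%). The letters TTCNNNGAA, the gamma activated site, occurred in 13 of the 34 (38.2%), against 9.38% of all genes; matches of the 2 motifs can overlap. Of the genes split in all 4 groups, 15 of 19 held the response element core, and of the remaining genes 11 of 15 did.

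Each stretch below lies upstream of a start of its gene, on the strand of the gene. Matches to the response element core, or its reverse complement (TTTC, any 2 bases, TTTC), are in capitals. The IFI27 stretch lies inside the listed span of the gene (94105894 to 94116690), upstream of a later start. TNFSF10 (chr3:172523573-172523652, minus strand), IFIT1 (chr10:89392485-89392564, plus), IFIT3 (chr10:89327840-89327919, plus), ISG15 (chr1:1013355-1013434, plus), IFI6 (chr1:27672241-27672320, minus) and BST2 (chr19:17405710-17405789, minus) were split in all 4 groups. TAP1 (chr6:32853788-32853867, minus) and IFI27 (chr14:94110606-94110685, plus) hold matches too and were not.
TNFSF10: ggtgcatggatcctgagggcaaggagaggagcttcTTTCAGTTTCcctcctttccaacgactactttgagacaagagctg
IFIT1: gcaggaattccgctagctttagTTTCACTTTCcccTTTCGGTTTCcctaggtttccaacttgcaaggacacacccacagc
IFIT3: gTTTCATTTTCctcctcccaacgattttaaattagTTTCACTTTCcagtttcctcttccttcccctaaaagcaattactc
ISG15: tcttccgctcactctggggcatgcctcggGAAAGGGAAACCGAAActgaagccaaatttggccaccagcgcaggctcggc
IFI6: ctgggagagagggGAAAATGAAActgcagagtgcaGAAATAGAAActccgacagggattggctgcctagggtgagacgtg
BST2: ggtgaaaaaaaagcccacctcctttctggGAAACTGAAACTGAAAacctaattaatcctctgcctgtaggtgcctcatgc
TAP1: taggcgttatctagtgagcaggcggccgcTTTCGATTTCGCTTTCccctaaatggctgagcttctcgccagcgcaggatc
IFI27: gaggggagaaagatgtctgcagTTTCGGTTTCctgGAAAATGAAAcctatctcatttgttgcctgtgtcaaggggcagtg

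Below, the 4 values of a group always run over numbers 1, 2, 3 and 4. The cell death ligand TNFSF10 (TRAIL) had the largest difference of all 19775 genes among those without overlap in all groups. TNFSF10 gave 7.13, 7.7, 5.31 and 4.95 in polysome PP242 and 8.15, 8.72, 6.06 and 6.24 in polysome vehicle, and 6.51, 6.93, 4.63 and 4.51 in cytosolic PP242 and 7.82, 7.94, 5.76 and 6.23 in cytosolic vehicle. Numbers 1 and 2 were 4.44-fold above numbers 3 and 4 on average, and the group means by PP242 differed by less than the number pairs did. PLAAT4, a retinoid- and interferon-induced phospholipid enzyme that limits growth, followed with a mean difference of 1.87, or 3.65-fold. PLAAT4 stood at 6.99, 6.89, 4.69 and 5.03 in polysome PP242 and 7.31, 7.17, 4.79 and 5.47 in polysome vehicle, and 6.58, 6.96, 5.05 and 5.51 in cytosolic PP242 and 6.66, 6.92, 5.13 and 4.87 in cytosolic vehicle. The third gene of this role, XAF1, an antagonist of the apoptosis inhibitor XIAP, showed a mean difference of −0.14 and a signal of 3.17 to 5.01.

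Among the IFIT proteins, which bind viral RNA with foreign caps or ends, 3 of 4 split in all groups. IFIT3 had 9.12, 9.19, 7.78 and 7.95 in polysome PP242 and 7.86, 8.26, 6.5 and 6.68 in polysome vehicle, and 9.33, 8.75, 7.62 and 6.81 in cytosolic PP242 and 8.12, 8.16, 6.49 and 6.61 in cytosolic vehicle. IFIT1 read 8.72, 8.85, 7.26 and 7.61 in polysome PP242 and 9.27, 9.46, 8.01 and 8.17 in polysome vehicle, and 8.37, 8.58, 6.95 and 7.25 in cytosolic PP242 and 8.67, 8.91, 7.49 and 7.69 in cytosolic vehicle. IFIT2 gave 8.38, 8.36, 7.37 and 7.36 in polysome PP242 and 7.34, 7.56, 6.56 and 6.43 in polysome vehicle, and 9.09, 8.85, 8.37 and 7.66 in cytosolic PP242 and 8.5, 8.47, 7.49 and 7.57 in cytosolic vehicle. The mean differences were 1.54, 1.30 and 0.97 for IFIT3, IFIT1 and IFIT2, and that of IFIT2 lay between 0.96 and 1.01 in the 4 groups. IFIT5 differed by 0.29 and separated the number pairs in 2 groups. The IFITM proteins, which block fusion of viruses with cell membranes, all split. IFITM1 stood at 10.84, 10.73, 9.8 and 9.8 in polysome PP242 and 11.45, 11.2, 9.61 and 9.96 in polysome vehicle, and 10.65, 11.23, 9.63 and 10.0 in cytosolic PP242 and 11.09, 11.27, 9.63 and 9.72 in cytosolic vehicle. IFITM2 had 11.39, 11.29, 10.67 and 10.69 in polysome PP242 and 11.69, 11.62, 10.49 and 10.83 in polysome vehicle, and 11.62, 12.02, 10.76 and 11.39 in cytosolic PP242 and 11.85, 12.02, 10.89 and 11.01 in cytosolic vehicle. IFITM3 read 11.29, 11.22, 10.57 and 10.67 in polysome PP242 and 11.63, 11.58, 10.45 and 10.75 in polysome vehicle, and 11.29, 11.56, 10.37 and 10.7 in cytosolic PP242 and 11.43, 11.58, 10.43 and 10.53 in cytosolic vehicle. Their mean differences were 1.29, 0.85 and 0.89. IFITM2 and IFITM3 were read by probe sets of the type that can hybridise with related transcripts, so these 2 near-identical genes cannot be told apart with certainty.

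The OAS family makes the oligoadenylate signal that activates RNase L, except OASL, which lacks that activity and assists RNA sensing. OASL was the third highest of the set at 1.81, or 3.51-fold. OASL gave 9.2, 9.05, 7.44 and 7.29 in polysome PP242 and 7.96, 7.96, 5.78 and 6.07 in polysome vehicle, and 8.4, 8.73, 6.63 and 6.88 in cytosolic PP242 and 7.31, 7.34, 5.73 and 5.64 in cytosolic vehicle. OAS1 split as well, by 0.83, at a dimmer signal. OAS1 stood at 3.54, 4.23, 3.16 and 3.47 in polysome PP242 and 3.94, 4.71, 3.29 and 3.02 in polysome vehicle, and 5.25, 4.83, 4.38 and 4.08 in cytosolic PP242 and 4.99, 5.02, 4.12 and 4.39 in cytosolic vehicle. Neither OAS2 (0.00) nor OAS3 (0.26) separated the number pairs in all groups. Of ISG15, the ubiquitin-like modifier, and its enzymes, ISG15, the ligase HERC5 and the protease USP18 split in all 4 groups and HERC6 in 3. ISG15 had 10.59, 10.6, 9.43 and 9.08 in polysome PP242 and 10.43, 10.57, 9.14 and 9.23 in polysome vehicle, and 8.87, 9.31, 7.89 and 8.47 in cytosolic PP242 and 8.8, 8.98, 7.81 and 7.84 in cytosolic vehicle. HERC5 read 6.4, 6.3, 5.15 and 5.37 in polysome PP242 and 5.61, 5.53, 4.71 and 4.53 in polysome vehicle, and 6.1, 5.93, 5.2 and 4.98 in cytosolic PP242 and 5.42, 5.48, 4.93 and 4.69 in cytosolic vehicle. USP18 gave 6.64, 6.49, 6.25 and 6.34 in polysome PP242 and 7.15, 6.81, 6.53 and 6.64 in polysome vehicle, and 6.65, 6.5, 6.19 and 6.23 in cytosolic PP242 and 6.85, 6.81, 6.48 and 6.33 in cytosolic vehicle. Their mean differences were 1.16, 0.90 and 0.36, with 0.60 for HERC6.

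Of the 8 MX GTPases and other antiviral effectors, BST2 (tetherin, which holds budding virions on the cell), the exonuclease ISG20 and MX1 split in all groups. BST2 stood at 6.81, 6.69, 5.8 and 5.79 in polysome PP242 and 7.5, 7.64, 5.92 and 6.37 in polysome vehicle, and 7.69, 8.09, 6.23 and 7.52 in cytosolic PP242 and 7.8, 8.19, 6.41 and 6.97 in cytosolic vehicle. ISG20 had 8.29, 7.95, 7.3 and 7.31 in polysome PP242 and 7.52, 7.42, 6.81 and 6.6 in polysome vehicle, and 7.03, 7.17, 6.22 and 6.75 in cytosolic PP242 and 6.6, 6.64, 5.95 and 5.79 in cytosolic vehicle. MX1 read 5.05, 4.77, 4.52 and 4.25 in polysome PP242 and 4.64, 4.61, 4.44 and 4.34 in polysome vehicle, and 4.49, 4.45, 4.04 and 3.72 in cytosolic PP242 and 4.17, 4.11, 3.65 and 3.6 in cytosolic vehicle. The mean differences were 1.18, 0.74 and 0.47. RSAD2 (viperin) differed by 0.62 and separated in 3 groups, and CMPK2, its neighbour on chromosome 2, by 0.18 at a signal of 2.32 to 3.72. MX2 (0.11), SAMD9 (0.05) and TRIM22 (−0.02) did not separate in all groups.

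Both RNA sensors split: IFIH1 (MDA5), which detects long double-stranded RNA, by 1.09, and the helicase DDX60 by 1.22. IFIH1 gave 5.93, 5.92, 4.19 and 4.14 in polysome PP242 and 4.82, 5.13, 4.05 and 3.72 in polysome vehicle, and 5.11, 4.92, 4.21 and 4.0 in cytosolic PP242 and 4.45, 4.35, 3.7 and 3.9 in cytosolic vehicle. DDX60 stood at 5.0, 5.24, 3.8 and 3.62 in polysome PP242 and 5.52, 5.3, 3.37 and 3.23 in polysome vehicle, and 2.94, 3.34, 2.73 and 2.68 in cytosolic PP242 and 3.44, 3.67, 2.58 and 2.7 in cytosolic vehicle. DDX60 was the least even of the set across pools, with 1.41 and 2.11 in polysome PP242 and polysome vehicle, against 0.44 and 0.92 in cytosolic PP242 and cytosolic vehicle, where its signal was near 3. Of the transcription factors, IRF9, the DNA-binding part of the type I complex, differed by 1.00 and IRF1 by 0.51. IRF9 had 7.4, 7.45, 6.64 and 6.28 in polysome PP242 and 7.46, 7.46, 5.93 and 5.91 in polysome vehicle, and 7.19, 7.43, 6.7 and 6.49 in cytosolic PP242 and 7.17, 7.17, 6.44 and 6.34 in cytosolic vehicle. IRF1 read 6.4, 6.5, 5.97 and 6.13 in polysome PP242 and 6.91, 7.1, 6.38 and 6.51 in polysome vehicle, and 6.34, 6.68, 5.95 and 6.19 in cytosolic PP242 and 6.65, 6.88, 6.14 and 6.13 in cytosolic vehicle. IRF7 differed by −0.10 at a signal of 3.98 to 4.77. The ADP-ribosyltransferase PARP9 split in all groups, by 0.79, and its relative PARP14 in 2, by 0.35. PARP9 gave 6.35, 6.28, 5.74 and 5.61 in polysome PP242 and 6.51, 7.04, 5.65 and 5.91 in polysome vehicle, and 6.4, 6.86, 5.77 and 6.35 in cytosolic PP242 and 6.91, 6.8, 5.98 and 5.84 in cytosolic vehicle.

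Antigen processing divided within itself. The immunoproteasome subunits PSMB9 and PSMB8, which trim peptides for presentation, differed by 1.44 and 0.90, PSMB9 in all groups and PSMB8 in 3. PSMB9 stood at 7.36, 7.34, 6.09 and 6.14 in polysome PP242 and 8.15, 8.19, 6.12 and 6.22 in polysome vehicle, and 6.44, 6.8, 5.24 and 5.71 in cytosolic PP242 and 6.86, 7.04, 5.53 and 5.6 in cytosolic vehicle. TAP1, which carries those peptides into the endoplasmic reticulum and lies head to head with PSMB9 on chromosome 6, differed by 0.07 and separated the number pairs in 0 groups. Of the 7 other induced genes, the secreted glycoprotein LGALS3BP split by 1.47 and IFI6, a membrane protein of the endoplasmic reticulum, by 1.27. LGALS3BP had 7.68, 7.81, 6.3 and 6.03 in polysome PP242 and 7.94, 8.21, 6.21 and 6.39 in polysome vehicle, and 7.43, 8.11, 6.11 and 6.79 in cytosolic PP242 and 7.26, 7.5, 6.12 and 6.2 in cytosolic vehicle. IFI6 read 8.55, 8.5, 7.13 and 7.39 in polysome PP242 and 8.85, 8.98, 7.38 and 7.51 in polysome vehicle, and 7.93, 8.19, 6.61 and 7.02 in cytosolic PP242 and 7.99, 8.14, 6.96 and 6.97 in cytosolic vehicle. IFI35 (0.65) and IFI44 (0.38) separated in 3 groups, and IFI44L (0.17), IFI27 (0.07) and EPSTI1 (0.04) in fewer.

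**Figure D2:**
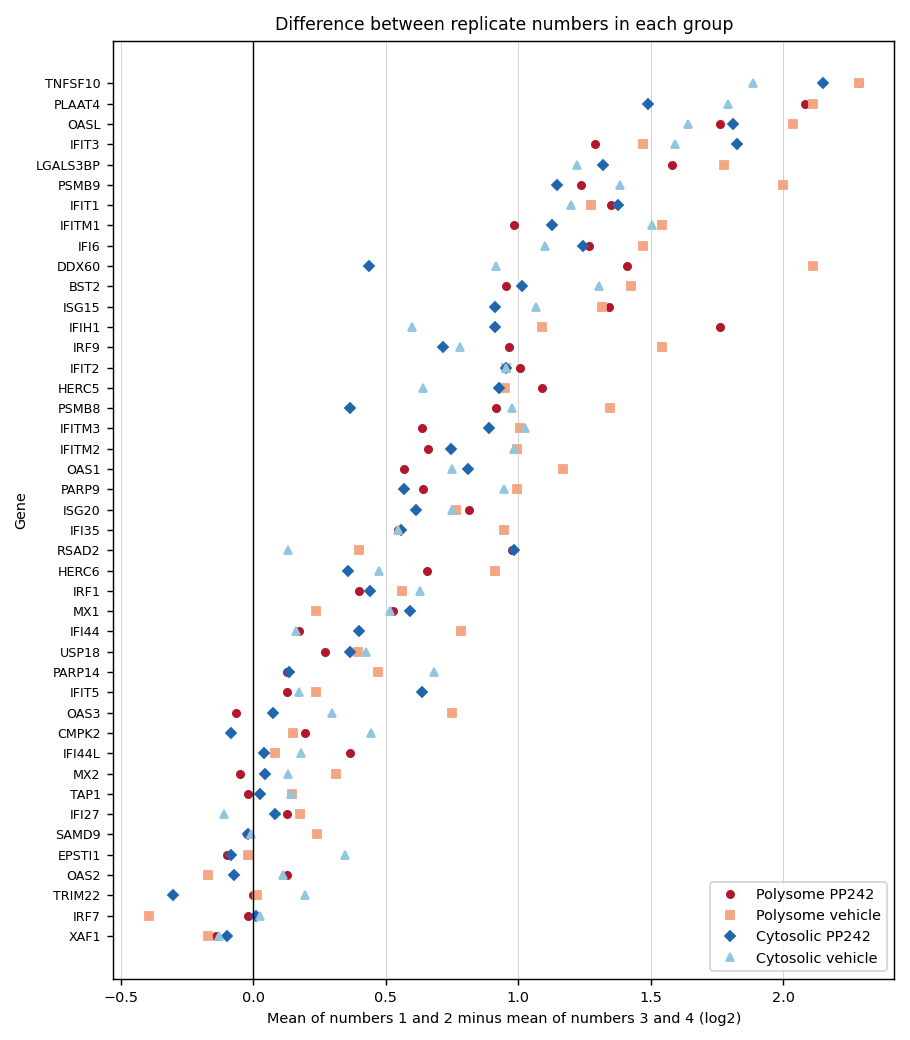
Each point is the mean log2 signal of numbers 1 and 2 minus that of numbers 3 and 4 for 1 gene in 1 of the 4 groups, with genes ordered by their mean. For the upper genes all 4 points lie right of 0, from TNFSF10 (1.89 to 2.29 over the groups), and for the lowest genes they straddle or lie left of it, as for XAF1 (−0.17 to −0.10).

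Members without the split were mostly dim. The 24 split genes had means of 3.70 to 11.3, and 5 of them lay below the median gene. The other 19 had means of 2.45 to 9.14, and 15 of them lay below it. TAP1 at 9.14, IFIT5 at 7.51, MX2 at 7.03 and IFI35 at 6.47 lay above it. Just inside the split were USP18, with a mean difference of 0.36, and MX1, 0.47; just outside, with separation in 3 groups, were PSMB8, 0.90, IFI35, 0.65, RSAD2, 0.62, HERC6, 0.60, IFI44, 0.38, and CMPK2, 0.18.

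Distances within and between the number pairs were taken for the 24 split genes. These genes were chosen for lying apart between the pairs. The distances therefore give the size of the split and no support for it. Over the 24 split genes, the median distance between numbers 1 and 2 was 0.10, 0.17, 0.35 and 0.14 in polysome PP242, polysome vehicle, cytosolic PP242 and cytosolic vehicle. Between numbers 3 and 4 it was 0.17, 0.18, 0.35 and 0.12 in the same order. The median distance between the pairs was 1.05, 1.30, 0.92 and 1.01. The cytosolic PP242 arrays were the loosest group over all genes too, with a median SD of 0.24 per gene, against 0.12 to 0.16 in the other 3 groups. Over the set, the median SD was 0.38 in polysome PP242, 0.55 in polysome vehicle, 0.43 in cytosolic PP242 and 0.38 in cytosolic vehicle, in each case above that of all genes.

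Taken group by group, numbers 1 and 2 lay above 3 and 4 without overlap for 31 members in polysome PP242 (24.7% of all genes), 34 in polysome vehicle (29.2%), 27 in cytosolic PP242 (18.0%) and 36 in cytosolic vehicle (32.6%). The reverse held for 1, 2, 1 and 1 members in that order, against 19.3%, 21.4%, 10.5% and 23.3% of all genes. A mean difference of at least 1 was found in 14 members and in 33 genes of all (0.167%). Of the 50 genes with the largest differences among those higher without overlap in all 4 groups, 16 were members. A second probe set gave the same direction: for 9 of the 24 split genes, 11 further probe sets all differed in the same direction, by 0.12 to 2.45, and 6 of these also split in all 4 groups.

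The genes of the wider pathway, from a list of 55 of which 50 were measured, held fewer such genes than the set. In 8 of the 50, numbers 1 and 2 lay above 3 and 4 in all groups, against 4.55% of all genes. In 0 they lay below, against 2.21% of all genes. They were the receptor subunit IL10RB (0.54), the helicase DHX58 (0.27), the kinase IKBKE (0.15), the nuclear body protein SP110 (0.62), the signalling brake SOCS1 (0.73), the ISG15-conjugating enzyme UBE2L6 (0.78), the class I chain HLA-C (0.76) and the proteasome activator PSME1 (0.86). The 8 measured interferon genes had means of 2.55 to 4.71 and 0 of them split; IFNB1 differed by 0.25. The receptors IFNAR1 (−0.13) and IFNAR2 (0.06) and the kinases JAK1 (0.13) and TYK2 (−0.01) did not split.

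Genes outside the pathway differed between the number pairs as well. The 5 genes with the largest positive differences outside both lists were S100A2 (1.74), PLAT (1.64), CA11 (1.43), TTYH1 (1.33) and ARPC3 (1.20). The 5 with the largest negative differences were RUFY2 (−1.85), FTX (−1.42), SLC7A11 (−1.40), RPS16P5 (−1.32) and TAF1D (−1.31). Of the cell type markers, COL1A2 (0.55) and HLA-DRA (0.20) were higher in numbers 1 and 2 in all 4 groups; HLA-DRA is a class II chain that interferon gamma induces. Of the other 3 measured leukocyte markers, CD14 differed by 0.47 and separated the number pairs in 2 groups, CD3E by 0.03 and PTPRC by 0.00. The other fibroblast markers differed little: COL1A1 by 0.02, DCN by 0.13, LUM by −0.03 and PDGFRB by −0.004. Among carcinoma markers, KRT8 (−0.33) was lower without overlap in 3 groups and KRT18 (−0.18) in 2. KRT19 (0.10) and VIM (0.13) were higher without overlap in 2 groups each. Their part in the split was not tested.

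The next comparison asked what PP242 did to these mRNAs on polysomes. TAP1 and MX2, a nuclear-pore-associated GTPase active against HIV, rose with PP242, and 0 members fell. That is 2 of 43, where 13.4% of all genes were called in either direction (6.81% rose and 6.55% fell). TAP1 gave 9.88, 9.76, 9.95 and 9.73 in polysome PP242 and 9.13, 9.37, 9.07 and 9.14 in polysome vehicle, and 8.93, 9.52, 8.96 and 9.44 in cytosolic PP242 and 8.36, 8.48, 8.2 and 8.36 in cytosolic vehicle. In polysome RNA the PP242 arrays (9.73 to 9.95) lay above the vehicle arrays (9.07 to 9.37), a difference of 0.65 ± 0.14 (SE, n = 4 each; limma, adjusted p = 0.00252). MX2 stood at 7.13, 6.98, 7.0 and 7.21 in polysome PP242 and 6.61, 6.72, 6.23 and 6.48 in polysome vehicle, and 7.52, 7.62, 7.3 and 7.75 in cytosolic PP242 and 7.1, 7.0, 6.93 and 6.91 in cytosolic vehicle. Here too the polysome groups did not overlap, with a difference of 0.57 ± 0.12 (limma, adjusted p = 0.00375). They were the only 2 members whose polysome groups did not overlap, where 19.3% of all genes had this (9.48% higher and 9.86% lower). In limma 9 members had an unadjusted p under 0.05. The share of all genes at that unadjusted level was not counted, here or below. The median polysome difference of the set was −0.04 (all genes, −0.01).

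In the fit without the replicate number, the split described above is part of the residual spread. The numbers were taken to pair the arrays, which the labels do not state. The same comparison with the number as a block is therefore given beside it. In that fit 8 members rose and 7 fell, against 20.3% of all genes called (10.6% higher and 9.70% lower). OASL had the largest difference, 1.30, with an adjusted p of 0.193 without and 2.37e-07 with the block. Number by number, its PP242 minus vehicle difference was 1.24, 1.09, 1.66 and 1.22. IFIT3 differed by 1.19 (limma, adjusted p = 0.176 without and 4.96e-05 with the block) and IFIT2 by 0.90 (0.0985 and 2.21e-05). HERC5 (0.71), ISG20, IFIH1 (0.62), TAP1 and MX2 completed the rises. ISG20 differed by 0.63.

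At the other end, TNFSF10 differed by −1.02 in polysome RNA, with an adjusted p of 0.461 without and 2.05e-05 with the block. Its differences at numbers 1 to 4 were −1.02, −1.02, −0.75 and −1.29. IFIT1 differed by −0.62 (limma, 0.466 and 4.97e-05), opposite in sign to its relatives IFIT2 and IFIT3. The remaining falls under the block were BST2 (−0.59), PSMB8 (−0.56), IRF1 (−0.48), PSMB9 (−0.44) and USP18 (−0.35). PSMB9 was the closest to the threshold, with an adjusted p of 0.0489. The called members thus moved in both directions, also within the IFIT family.

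**Figure D3:**
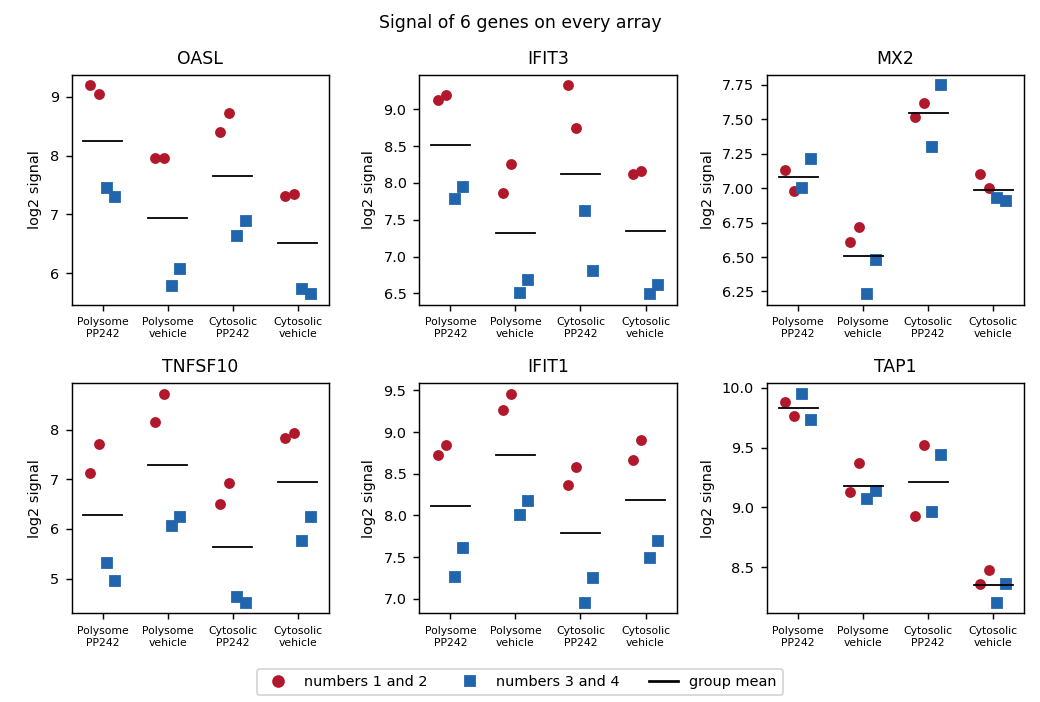
Points are the log2 signal of 6 genes on every array, with circles for numbers 1 and 2, squares for numbers 3 and 4, and a bar for the mean of each group of 4. OASL and IFIT3 lie higher with PP242 and TNFSF10 and IFIT1 lower at each number, but the gap between circles and squares is as large or larger. In MX2 (mean gap 0.11, without overlap in 2 groups) and TAP1 (0.07, in 0 groups) the gap is smaller than the PP242 difference.

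In cytosolic RNA 3 members rose and 0 fell, where 16.5% of all genes were called (8.54% higher and 7.91% lower). TAP1 rose by 0.86 ± 0.14 (SE, n = 4 each; limma, adjusted p = 1.97e-04) and MX2 by 0.56 ± 0.12 (adjusted p = 0.00392), with no overlap between groups in either (9.34% of all genes were higher without overlap). EPSTI1 rose by 0.48 ± 0.15 (adjusted p = 0.0362), and its other probe set by 0.14. With the mean of probe sets per gene, 2 members were called in cytosolic RNA (16.0% of all genes). EPSTI1 had 2.98, 3.25, 3.11 and 3.32 in polysome PP242 and 3.24, 3.13, 3.1 and 3.31 in polysome vehicle, and 3.27, 3.71, 3.16 and 3.99 in cytosolic PP242 and 3.23, 3.22, 2.79 and 2.97 in cytosolic vehicle. Its cytosolic groups overlapped and its signal was near the dim end of the array. In limma 6 members had an unadjusted p under 0.05 in cytosolic RNA, again with no share of all genes counted. Without replicate 4, or without cytosolic PP242 arrays 2 and 4, TAP1 was the only member called (8.11% and 9.99% of all genes). Leaving out arrays 2 and 4 also brought the median cytosolic difference of the set to 0.00, against 0.17 on all arrays (all genes, 0.02 and 0.04). That fit rests on 2 cytosolic PP242 arrays. Over all genes, arrays 1 to 4 of this group lay at median distances of 0.20, 0.21, 0.23 and 0.24 from the other 3, which does not set arrays 2 and 4 apart.

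With the block, 9 members rose and 3 fell in cytosolic RNA (24.9% of all genes called, 13.9% higher and 11.0% lower). OASL (1.16), IFIT3 (0.78), IFIT2 (0.49), HERC5 (0.42), ISG20 (0.55) and MX1 (0.29) joined the 3 above, and TNFSF10 (−1.29), IFIT1 (−0.40) and IFIT5 (−0.47) fell. The IFIT5 differences at numbers 1 to 4 were −0.14, −0.33, −0.31 and −1.09, so number 4 weighed most. Its other probe set went the other way in cytosolic RNA, by 0.075. TNFSF10 had an adjusted p of 0.244 without and 1.36e-06 with the block, and OASL 0.210 and 9.48e-07. Thus OASL, IFIT2, IFIT3, HERC5, ISG20, TAP1 and MX2 were called upward, and TNFSF10 and IFIT1 downward, in both RNA pools under the block. The pools come from different arrays, but the labels do not say whether they share a culture at each number. For genes called in both pools, further probe sets gave the same signs. In polysome and cytosolic RNA they read 0.78 and 0.66 for OASL, 0.74 and 0.93 for IFIT3, and 0.55 and 0.43 for IFIT2. The 2 of TNFSF10 read −1.05 and −1.15, and −0.65 and −1.37.

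Counted by direction alone, 8 members were higher with PP242 at each of the 4 numbers in polysome RNA (20.0% of all genes) and 10 were lower (20.2%). In cytosolic RNA 15 were higher (21.7%) and 4 lower (15.5%).

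**Figure D4:**
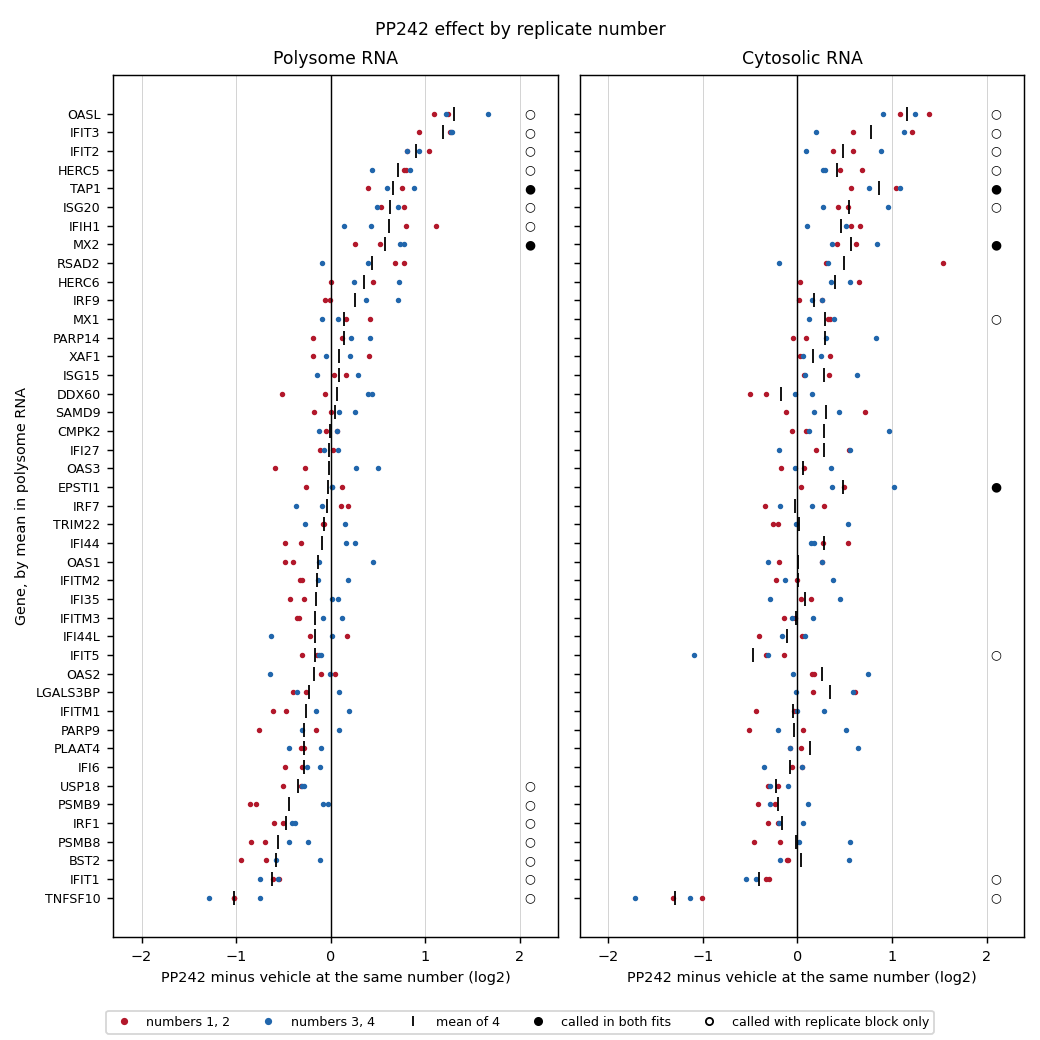
Points are the PP242 minus vehicle difference (log2) at each replicate number, in polysome RNA on the left and cytosolic RNA on the right, with a tick for the mean of 4; genes are ordered by the polysome mean. Filled circles at the right edge mark genes called by limma in both fits and open circles those called only with the replicate block; OASL, at 1.30 in polysome RNA, heads the list and TNFSF10, at −1.02, ends it.

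Whether the PP242 effect itself differed between numbers 1 and 2 and numbers 3 and 4 was tested with 1 mean per group and number pair. In both pools 0 members and 0 genes of all (0%) passed in limma. An unadjusted p under 0.05 was found in 6 members in polysome and 5 in cytosolic RNA. The share of all genes at that level was not counted, so nothing is read from these counts. OASL differed by 1.17 in numbers 1 and 2 and by 1.44 in numbers 3 and 4 in polysome RNA, a difference of −0.28 ± 0.22 (SE; limma, adjusted p = 1). TNFSF10 had −1.02 in both. OAS3 had the smallest p in polysome RNA, with −0.43 in numbers 1 and 2 and 0.39 in numbers 3 and 4 (unadjusted p = 0.00363, adjusted p = 1). IFIH1 showed 0.95 in numbers 1 and 2 and 0.28 in numbers 3 and 4 (unadjusted p = 0.00911, adjusted p = 1).

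The effect of PP242 on polysome association, the polysome difference minus the cytosolic difference, asked whether these mRNAs shifted between pools. In limma 0 members and 0 of all genes (0%) were called, with or without the block, and 1 member, EPSTI1 (−0.51 ± 0.21; adjusted p = 0.558), had an unadjusted p under 0.05. The median of the set was −0.15 (all genes, −0.04). OASL had an association effect of 0.15 ± 0.16 and TNFSF10 of 0.27 ± 0.19 (SE of the blocked fit, adjusted p = 0.687 and 0.498). IRF7, whose mouse mRNA is under translational control by mTOR effectors, had −0.02 ± 0.18 (adjusted p = 0.970) at a dim signal. Since each pool appears to have been normalized by itself, a shift shared by most mRNAs would not be visible.

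Polysome over cytosolic signal in vehicle-treated cells differed between members. With PP242 absent, 7 members were higher in polysome than in cytosolic RNA and 6 lower, where 52.7% of all genes were called (16.8% higher and 35.9% lower). Highest was ISG15, with 1.49 ± 0.41 (SE, n = 4 each; limma, adjusted p = 0.00483), followed by DDX60 (1.26), ISG20 (0.84), TAP1 (0.83), IFI35 (0.70), MX1 (0.63) and OAS2 (0.48). Lowest was XAF1, with −1.30 ± 0.11 (adjusted p = 4.71e-08), followed by IFIT5 (−1.17), IFIT2 (−1.04), OAS1 (−0.89), CMPK2 (−0.56) and MX2 (−0.48). With the block 15 members were higher and 10 lower (59.2% of all genes called, 19.5% higher and 39.7% lower). IFIT1 then counted as higher, by 0.54 (adjusted p = 5.11e-05), while IFIT2 and IFIT5 were lower, so the IFIT family again divided.

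This comparison depends on the scale, because the pools had different array medians (4.57 to 4.63 in polysome and 5.0 to 5.05 in cytosolic RNA). The median difference was 0.11 in the set and −0.16 over all genes. After quantile normalization over all 16 arrays 12 members were higher and 4 lower (45.1% of all genes called), and after cyclic loess 12 and 5 (46.0%). The median of all genes was then 0.01 under both. Of the members named in this comparison, all kept their sign under both, but OAS1 was no longer called under either (−0.54 after quantile and −0.56 after cyclic loess; limma, adjusted p = 0.19 and 0.163), nor MX2 after quantile (−0.25; adjusted p = 0.0763).

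**Figure D5:**
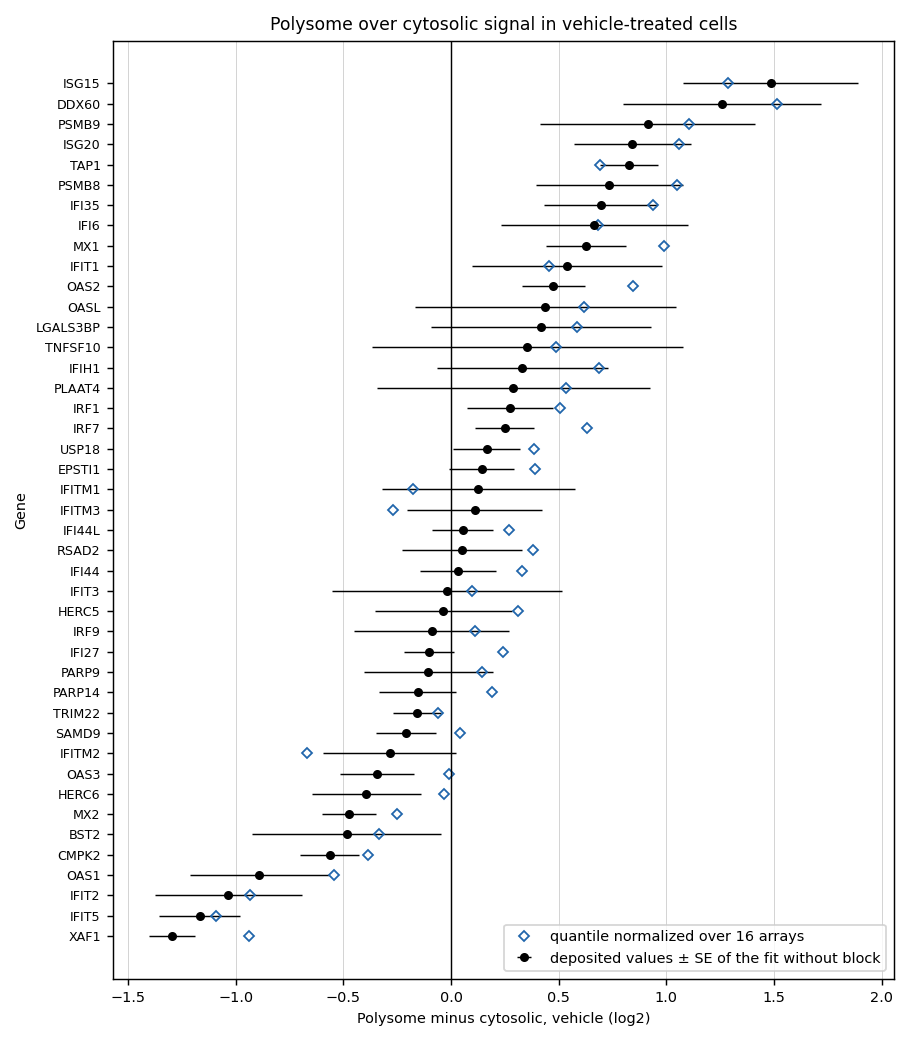
Filled points are the polysome minus cytosolic difference (log2) in vehicle-treated cells with the standard error of the limma fit without block, and open diamonds the same after quantile normalization over all 16 arrays. ISG15 (1.49) and DDX60 (1.26) stand at the top and IFIT5 (−1.17) and XAF1 (−1.30) at the bottom on both scales.

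The wider pathway list holds receptors and inducers of interferon, but also effectors and antigen presentation genes that are not upstream of the set. Some of its genes were called with PP242. In polysome RNA 0 of the 8 ligands and 0 of the 4 JAK-STAT genes were called. In polysome RNA 6 of the 50 measured pathway genes rose and 2 fell, and in cytosolic RNA 10 rose and 2 fell; the backgrounds are the 13.4% and 16.5% given above. IFNGR2, a subunit of the interferon gamma receptor, rose by 1.02 ± 0.13 in polysome and 1.12 ± 0.13 in cytosolic RNA (limma, adjusted p = 2.09e-05 and 7.20e-06). The non-classical class I chain HLA-E rose by 0.78 and 1.10, NLRC5, an activator of class I genes, by 0.57 and 0.54, the adaptor MAVS by 0.70 and 0.38, and the nuclear body protein SP100 by 0.68 and 0.53. ZC3HAV1, an antiviral zinc finger protein, rose in polysome RNA by 0.49. In cytosolic RNA IFNAR1 (0.61), JAK1 (0.53), STING1 (0.55), HLA-B (0.76) and the chaperone TAPBP (0.60) also rose. The RNA-activated kinase EIF2AK2 (PKR) fell by 0.68 in polysome and by 1.04 in cytosolic RNA, and the DNA sensor CGAS by 0.55 and by 0.65.

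With the block, 11 pathway genes rose and 3 fell in polysome RNA, and 15 rose and 4 fell in cytosolic RNA, against the 20.3% and 24.9% of all genes given above. In polysome RNA the added rises were IFNAR1 (0.46), IL10RB (0.39), the RNA sensor RIGI (0.79), HLA-B (0.45) and HLA-C (0.44), and PSME1 (−0.38) was the added fall. In cytosolic RNA IL10RB (0.53), DHX58 (0.33), ZC3HAV1 (0.32), the signalling brake SOCS3 (0.34) and HLA-C (0.64) were added to the rises. The class I light chain B2M (−0.75) and the SUMO ligase PIAS1 (−0.30) were added to the falls there.

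None of the 8 measured interferon genes was called with PP242 in either pool by limma, with or without the block, and 0 had an unadjusted p under 0.05. IFNAR2 and TYK2 were not called either. Among markers, the fibroblast collagen COL1A2 fell by 0.85 in polysome and by 0.66 in cytosolic RNA, and the keratin KRT19 rose by 1.13 and 1.57. Their part in the changes of the interferon-induced genes was not tested.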

How the data were processed

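The values are the log2 signals that the authors deposited as 1 table of 54613 probe sets on 16 arrays, made by RMA per the submitters' processing notes (version not stated). They run from 1.65 to 14.61 with 0 missing; array medians differ between the pools, as if each had been normalized apart, and the sources used here do not state the settings. Biotin-labelled RNA was prepared with a 3-prime kit from cytosolic RNA and from fractions of a 10% to 50% sucrose gradient, per the labels. Probe sets were named with the platform's gene annotation and RefSeq symbols: 41091 list 1 gene, 1801 several and 11721 were not in that table.

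One mean per group was fitted to all 16 arrays with limma 3.58.1 in R 4.3.3 (lmFit, eBayes with an intensity trend), two-sided, adjusted by Benjamini-Hochberg over 19775 genes and called under 0.05. Values after ± are SEs of the contrast. The fit was tested on simulated data. Numbers 1 and 2 against 3 and 4 had no test; the PP242 effect by number pair used 8 means. Deviations from group means correlated at 0.164 to 0.510 in 16 of 16 pairs of same-numbered arrays between groups that share pool or treatment. Over all 24 pairs of same-numbered arrays the lowest correlation was 0.0265. The split of numbers 1 and 2 from 3 and 4 is part of these deviations, so they do not show pairing number by number. The numbers were taken to pair arrays, and blocked results stand beside the others.

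All members are named; pathway genes if called, and the 5 largest differences each way outside the lists. Members, lists and motifs were chosen with earlier results of these data known. Alternatives were the replicate block, the mean of probe sets, other normalizations, array weights, filters and left-out arrays.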

Additional observations from a re-analysis of the deposited data

Results flagged for a closer look

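Of 172 sets of 4 arrays (43 genes in 4 groups), 1 held an array that stood apart from the other 3 by the gap in its range. OAS2 in polysome vehicle read 4.18 at number 1, where the other 3 arrays read 4.46 to 4.50. The gap was 0.875 of the range, above Dixon's critical value for 4 values; chance alone would mark about 1 in 20 such sets, and the signal was dim.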

How the results depend on the processing

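Most values held. Among single genes, 2374 recomputed values kept their direction and their side of the threshold, 88 passed only under an alternative, 33 no longer passed and 1 turned round: EPSTI1, polysome over cytosolic in vehicle, was 0.14 on its brightest probe set and −0.36 on the mean of its probe sets (limma, adjusted p = 0.00848). The replicate block raised the number of members called to 15 in polysome RNA, 12 in cytosolic RNA and 25 for polysome over cytosolic, where the fit without it called 2, 3 and 13; it changed no call on polysome association. Within numbers 1 and 2 alone the counts were 12, 9 and 20 (10.1%, 12.4% and 46.4% of all genes). Within numbers 3 and 4 alone they were 3, 3 and 12 (5.49%, 5.35% and 32.5%). Both fits lack the gap between number pairs by construction and rest on 2 arrays a group. Array weights gave 5 in polysome RNA (18.8% of all genes). A filter on genes with a group mean of at least 5 gave 7 for polysome over cytosolic, with 29 members tested (58.2% of all genes kept). Without cytosolic PP242 arrays 2 and 4 the cytosolic count was 1 (9.99% of all genes). Leaving out each replicate in turn gave 1 to 4 members in cytosolic RNA (7.80% to 16.8% of all genes). Without replicate 4, MX2 and EPSTI1 were lost. TAP1 and MX2 in polysome RNA were called in each of those 4 fits. Neither was called in polysome RNA within numbers 1 and 2 alone or within numbers 3 and 4 alone. The cause of the other changes was not tested. Dim genes such as TRIM22 and CMPK2 sit close to the lowest signals of the array, where a difference may be understated. All array values are relative within a pool, and 4 arrays a group limit what can be called.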
